A study of Mus musculus with 4 samples.

Results

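Tumour suppressor p53 and 9 genes of its stress response were followed in cultures labelled as mouse spermatogonial stem cells. The treatment was removal of FGF2 and addition of an FGF receptor inhibitor. The genes were Trp53 itself, Mdm2, Ccng1, Gadd45a, Gadd45b, Gadd45g, Perp, Zmat3, Sesn1 and Sesn2. The members were every probe whose name in the scanner files was 1 of these 10 symbols or an older alias. Probes of these genes were taken without regard to their values, which gave 18 probes among 41174 and 10 genes among 27729 named on the array. The 10 genes themselves were chosen with earlier results of these data known. Such stem cells renew themselves in the testis and give rise to sperm. The cells came from C57/BL6 x DBA/2 F1 mice at day 5 and were grown without serum in MEMa that held GDNF at 40 ng/ml and FGF2 at 5 ng/ml. Treated cells (-F+S) were passaged into medium that lacked FGF2 and held SU5402, an inhibitor of the FGF receptor kinase. Their label gives 12 h, which is read here as the length of the treatment. Control cells stayed in the normal medium, so both groups had GDNF. Each of 4 two-colour Agilent arrays held 1 treated sample (Cy3, green) and 1 control sample (Cy5, red), described in the series design as 4 biological replicates per group. Dyes were not swapped, so an effect of the dye on a single probe cannot be told apart from the treatment. Unless control cells were passaged alongside, an effect of passaging cannot be told apart from the treatment either.

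p53 is a transcription factor that is kept scarce in unstressed cells by the ubiquitin ligase Mdm2 and is stabilised, mostly at the protein level, when DNA is damaged or growth conditions fail. It then activates genes that halt the cell cycle, repair DNA, lower mTORC1 activity or start apoptosis, and it activates Mdm2, which closes a feedback loop. Several of these genes also answer to other signals: the Gadd45 genes to NF-kB, TGF-beta and cytokines, Sesn2 to ATF4, and Perp to the p53 relative p63. In the male germ line, p53 is known for removing damaged germ cells.

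The promoters of the 3 Gadd45 genes are shown because all 3 genes moved together in the results. They are the 250 bases before the RefSeq start site in GRCm38.p6, at chr6:67037408-67037657 (minus strand) for Gadd45a, chr10:80929841-80930090 (plus strand) for Gadd45b and chr13:51846425-51846674 (plus strand) for Gadd45g. Capitals mark the core promoter motif TATAAA, the octamer ATTTGCAT and the E-box CACGTG, read on either strand.
Gadd45a: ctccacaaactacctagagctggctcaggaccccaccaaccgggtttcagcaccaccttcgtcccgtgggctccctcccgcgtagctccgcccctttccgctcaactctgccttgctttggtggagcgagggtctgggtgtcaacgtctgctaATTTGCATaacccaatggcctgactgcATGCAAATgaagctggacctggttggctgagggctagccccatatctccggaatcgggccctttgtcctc
Gadd45b: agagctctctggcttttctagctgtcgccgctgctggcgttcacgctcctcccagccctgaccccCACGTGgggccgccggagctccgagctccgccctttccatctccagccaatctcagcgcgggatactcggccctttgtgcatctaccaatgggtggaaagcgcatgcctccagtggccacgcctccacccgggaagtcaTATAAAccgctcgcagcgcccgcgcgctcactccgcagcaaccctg
Gadd45g: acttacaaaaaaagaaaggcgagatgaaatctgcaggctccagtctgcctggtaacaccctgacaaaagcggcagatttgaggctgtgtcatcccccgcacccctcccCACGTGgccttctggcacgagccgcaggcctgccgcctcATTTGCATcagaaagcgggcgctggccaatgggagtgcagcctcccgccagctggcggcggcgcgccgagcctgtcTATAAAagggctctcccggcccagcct

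The motifs were chosen with these sequences in view, so the counts below are a description. RefSeq gave 9 windows of this length for 8 of the 10 members, with 2 start sites for Sesn1; Perp and Zmat3 had no entry. TATAAA lay in 3 of the 9 windows, those of Gadd45b, Gadd45g and, on the reverse strand, Trp53, and in 12.4% of 32851 mouse windows. The octamer lay in the windows of Gadd45a and Gadd45g and in 1.60% of all windows. CACGTG lay in those of Gadd45b and Gadd45g and in 6.02% of all. CCAAT was in all 9 windows, against 33.8% of all. TTGCATCA, which overlaps the octamer in Gadd45g, was found there alone among the members, against 0.791% of all windows. Single p53 decamers, by the consensus of the p53 element, were in the windows of Trp53, Mdm2, Ccng1, Gadd45a and 1 of the Sesn1 starts, 5 of 9 against 7.13% of all. No member window held the element of paired decamers, which 0.0639% of all windows hold. The element best known for Gadd45a lies in an intron, outside these windows.

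By the brightest probe of each gene, 9 of the 10 genes were higher in treated cells and Trp53 was lower. The value for each gene is that of its brightest probe, as the log2 ratio of treated over control, tested against no change with limma and adjusted over 18454 genes; a gene is called at an adjusted p under 0.05. Other kept probes were not called higher for Mdm2 (-0.42), Ccng1 (0.08), Sesn1 (-0.02 and -0.11) and Sesn2 (-0.21). The other kept probe was called higher for Gadd45b (2.58) and lower for Trp53 (-0.27). Changes were common on these arrays: 68.4% of all genes were called, 37.5% higher and 30.9% lower. Ccng1, Gadd45a, Gadd45b, Gadd45g, Perp and Zmat3, 6 of 10, were called at least 2-fold higher, against 11.7% of all genes, and no member was called 2-fold lower (1.66% of all genes). The median log2 ratio of the members was 1.22, and that of all genes was 0.02. Since the members were chosen with earlier results of these data known, these contrasts with all genes are a description. Each of the 10 genes had the same sign on all 4 arrays, as did 73.6% of all genes. In RNA from whole cultures, fewer cells of a type and less RNA per cell cannot be told apart.

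Markers of other cells moved on the same arrays. Of the Sertoli cell list 10 of 11 genes were called higher, and their summed linear signal was 489070 to 518867 in treated and 113502 to 120132 in control samples. Of 8 tested peritubular and Leydig genes, 7 were higher and 1 lower (361622 to 406232 against 98255 to 107822), and of 9 fibroblast genes, 8 were higher (1400239 to 1509307 against 547648 to 617320). All 9 leukocyte genes were lower (52318 to 65397 against 124439 to 148998). Of 5 tested endothelial genes, 2 were higher and 2 lower (3585 to 4046 against 3952 to 4516). Markers of the labelled cell type were present: 12 undifferentiated spermatogonial genes were well above background in all samples, 7 of them lower and none higher (197243 to 202229 against 250900 to 286259). Of 5 tested genes of differentiating germ cells, 2 were higher and 3 lower (62875 to 68331 against 61991 to 69019). The linear sums are weighted to the brightest genes of a list. Mean log2 levels in treated and control samples were 18.23 and 16.33 for Clu (Sertoli). They were 18.70 and 17.08 for Col1a1 (fibroblast) and 15.60 and 16.76 for Lyz2 (leukocyte). Prdm9 and Tie1 were not well above background on any array, and Fshr was so in 1 control sample. The labels do not say whether feeder cells were present. The part of these cells in the ratios of the p53 genes was not tested.

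**Figure D1:**
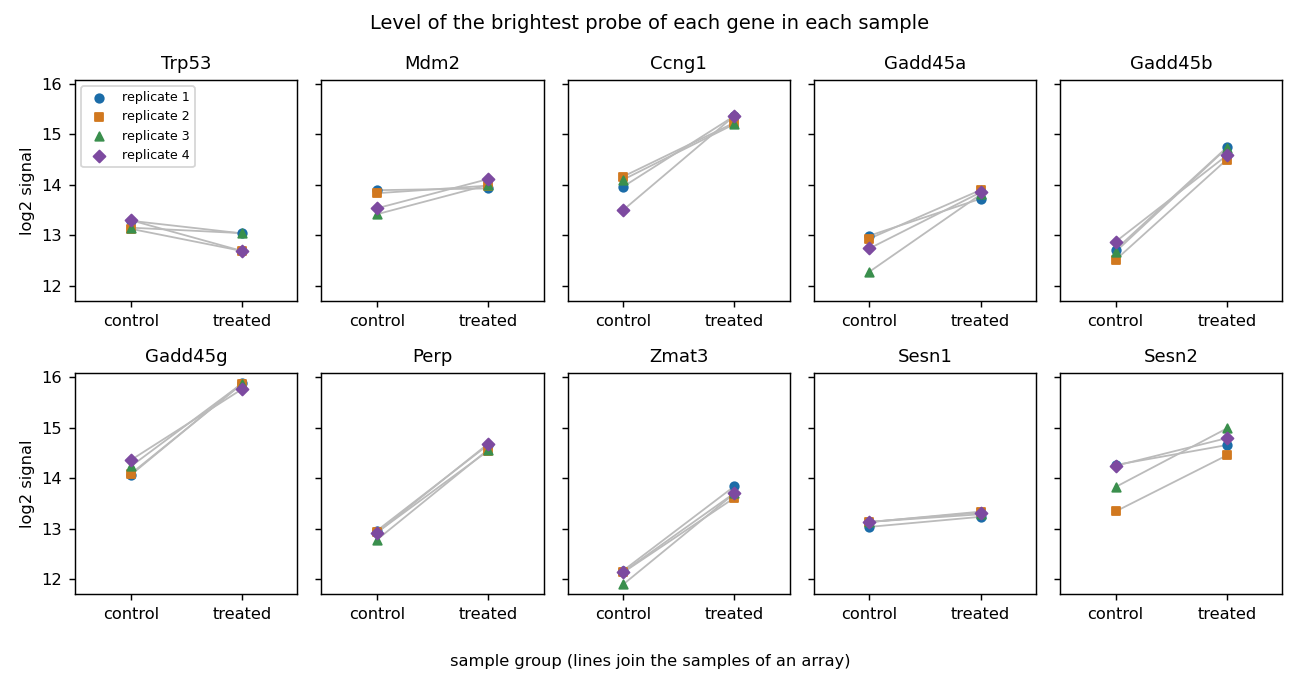
Level of the brightest probe of each of the 10 genes (y axis, log2 of the normalized signal) in the 4 control and 4 treated samples (x axis), with a line joining the 2 samples of each array. The 4 treated points lie above the 4 control points in 9 panels and below them in the Trp53 panel.

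Trp53 encodes p53 itself. Its brightest probe (A_52_P491849, mm9 chr11:69403134-69403193) read 13.04, 12.69, 13.04 and 12.69 in the treated samples of replicates 1 to 4 and 13.29, 13.13, 13.15 and 13.30 in the controls, on the log2 scale. All treated samples lay below all controls. Over the members the brightest probe had all treated samples below in 1 gene (27.1% of all genes) and above in 9 (34.1%). The log2 ratio was -0.35 (SE 0.090, n = 4 arrays, adjusted p = 0.00686), or 1.28-fold lower, and ranged from -0.61 to -0.11 over the arrays. This probe is printed on 10 spots of each array, and the SD between spots of an array, 0.019 to 0.114, was below the SD of 0.22 between arrays. The upstream probe (A_52_P781398, chr11:69393959-69394017) gave -0.27 (adjusted p = 0.0126), with overlapping groups. Its call was lost without replicate 3 (-0.22, adjusted p = 0.0524), under median centring (-0.18, adjusted p = 0.325) and after the trend on probe GC content was removed (-0.077, adjusted p = 0.306). With median centring of the arrays in place of loess the fall of Trp53 was -0.33 and no longer passed (adjusted p = 0.0975). These values are RNA, and the amount of p53 protein was not measured.

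Mdm2, the ligase that marks p53 for destruction, gave opposite answers from its probes. The brighter probe (A_52_P469842, mm9 chr10:117126278-117126337) read 13.93, 13.98, 14.00 and 14.11 in treated samples and 13.89, 13.83, 13.42 and 13.54 in controls. All treated samples lay above all controls, but by little on 2 arrays: the log2 ratios were 0.04, 0.15, 0.58 and 0.58, with a mean of 0.34 (SE 0.105, adjusted p = 0.0176). The other probe (A_51_P201346, chr10:117129725-117129784, 10 spots per array) read 11.20, 11.39, 11.22 and 11.27 in treated samples and 11.75, 11.81, 11.74 and 11.44 in controls. There the treated samples were all lower, and the log2 ratio was -0.42 (adjusted p = 0.00186). In this fit Mdm2 was the 1 member whose probes were called in both directions. The mean of both probes was -0.04 (adjusted p = 0.688), and without replicate 3 or replicate 4 the brighter probe no longer passed (0.25 and 0.26, adjusted p = 0.0857 and 0.0797). Its call was also lost under median centring (0.29, adjusted p = 0.147), with the median-centred processed signals (0.28, adjusted p = 0.0583), with the uncentred scanner ratios (0.17, adjusted p = 0.211) and with the GC trend removed (0.20, adjusted p = 0.0784). No direction for Mdm2 RNA as a whole can be given from these probes.

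Ccng1, cyclin G1, a direct p53 target that brings a phosphatase to Mdm2, also differed between probes. The brighter probe (A_52_P612803, mm9 chr11:40562427-40562486) read 15.36, 15.23, 15.20 and 15.36 in treated samples and 13.96, 14.16, 14.10 and 13.50 in controls. Treated samples lay more than 1 log2 unit above the control of the same array on every array, and the log2 ratio was 1.35 (SE 0.125, 2.56-fold, adjusted p = 1.13e-05). The other probe (A_51_P161612, chr11:40564413-40564472) read 14.15, 13.94, 14.20 and 14.01 against 13.90, 14.04, 14.07 and 13.95. Its groups overlapped, with a log2 ratio of 0.08 (adjusted p = 0.377).

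The 3 Gadd45 genes encode small stress proteins that bind PCNA, the cell-cycle kinase Cdk1 and the kinase Map3k4, which leads to p38 and JNK. All 3 rose. Gadd45a (A_51_P296608, mm9 chr6:66985376-66985435), the classical p53 and DNA damage target, read 13.72, 13.90, 13.81 and 13.85 in treated samples and 12.99, 12.94, 12.28 and 12.74 in controls. The groups did not overlap, and the control of replicate 3 was the lowest. The log2 ratio was 1.08 (SE 0.116, 2.12-fold, adjusted p = 3.17e-05).

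Gadd45b, which is also induced by NF-kB and TGF-beta, had the largest ratio of the 10 genes. Its brightest probe (A_52_P1197913, mm9 chr10:80394367-80394426) read 14.74, 14.50, 14.73 and 14.58 in treated samples and 12.72, 12.52, 12.68 and 12.88 in controls. The log2 ratio was 1.94 (SE 0.079, 3.83-fold, adjusted p = 5.70e-08), above 97.5% of all genes. The downstream probe (A_51_P500984, chr10:80394890-80394949) read 14.87, 14.90, 14.75 and 14.70 against 12.58, 12.34, 11.67 and 12.30, a log2 ratio of 2.58 or 5.98-fold. On both probes every treated sample was far above every control.

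Gadd45g, known as a cytokine-induced member, read 15.88, 15.86, 15.87 and 15.76 in treated samples and 14.06, 14.09, 14.23 and 14.36 in controls (A_51_P315904, mm9 chr13:51943733-51943792). The log2 ratio was 1.66 (SE 0.084, 3.15-fold, adjusted p = 2.09e-07). Replicate 4 had both the lowest treated and the highest control level, and so the smallest log2 ratio, 1.40. Gadd45a, Gadd45b and Gadd45g kept their calls in every alternative processing run.

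Perp, a membrane protein of desmosomes that takes part in p53-dependent apoptosis, was the most even of the strong risers. It read 14.66, 14.54, 14.57 and 14.68 in treated samples and 12.96, 12.93, 12.78 and 12.92 in controls (A_51_P317941, mm9 chr10:18576697-18576756). The log2 ratios of the arrays lay between 1.62 and 1.78, with a mean of 1.71 (SE 0.068, 3.28-fold, adjusted p = 4.84e-08).

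Zmat3 is a zinc-finger RNA-binding protein and p53 target. Its kept probe (A_51_P415220, mm9 chr3:32233831-32233890) read 13.84, 13.61, 13.70 and 13.71 in treated samples and 12.18, 12.14, 11.90 and 12.15 in controls. The groups were more than 1 log2 unit apart, and the log2 ratio was 1.62 (SE 0.076, 3.08-fold, adjusted p = 1.31e-07). Another Zmat3 probe (A_52_P33039, chr3:32261799-32261858), designed on a different transcript record, was not well above background in either channel on any array and was not tested.

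Sestrins restrain mTORC1, the growth kinase complex, when amino acids are short or cells are stressed. Sesn1, the sestrin best known as a p53 target, changed little. Its brightest probe (A_51_P233954, mm9 chr10:41628000-41628059) read 13.24, 13.34, 13.29 and 13.32 in treated samples and 13.04, 13.13, 13.14 and 13.14 in controls. The treated samples were all higher, by 0.15 to 0.21, with a mean log2 ratio of 0.19 (SE 0.065, 1.14-fold, adjusted p = 0.0296). The other kept probes, A_52_P53596 (chr10:41627097-41627156) and A_51_P266644, gave -0.02 and -0.11 (adjusted p = 0.878 and 0.368). The last of these lies on both sides of an intron, within chr10:41618206-41622368. The call of Sesn1 did not hold up. It was lost without replicate 1, 2 or 4 (0.18, 0.18 and 0.19), under median centring (0.20), with the median-centred processed signals (0.12, adjusted p = 0.176) and with the mean of the kept probes (0.021, adjusted p = 0.815). With the uncentred scanner ratios no rise was left (0.0050, adjusted p = 0.953).

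Sesn2, a leucine sensor and a target of both p53 and ATF4, rose on its brighter probe (A_52_P154710, mm9 chr4:132047974-132048033). That probe read 14.66, 14.45, 14.98 and 14.79 in treated samples and 14.26, 13.35, 13.83 and 14.25 in controls. The log2 ratio was 0.80 (SE 0.129, 1.74-fold, adjusted p = 0.000448), from 0.39 in replicate 1 to 1.16 in replicate 3. The other probe (A_51_P161354, chr4:132048858-132048917) read 13.34, 13.03, 13.29 and 13.11 in treated samples and 13.16, 13.28, 13.65 and 13.53 in controls. Its groups overlapped, and its log2 ratio was -0.21 (adjusted p = 0.0965). This probe was called lower without replicate 1 (-0.35, adjusted p = 0.0104), with the median-centred processed signals (-0.29, adjusted p = 0.0486) and with the uncentred scanner ratios (-0.40, adjusted p = 0.0133), while the brighter probe stayed called higher, so under these settings the Sesn2 probes also disagreed in direction.

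**Figure D2:**
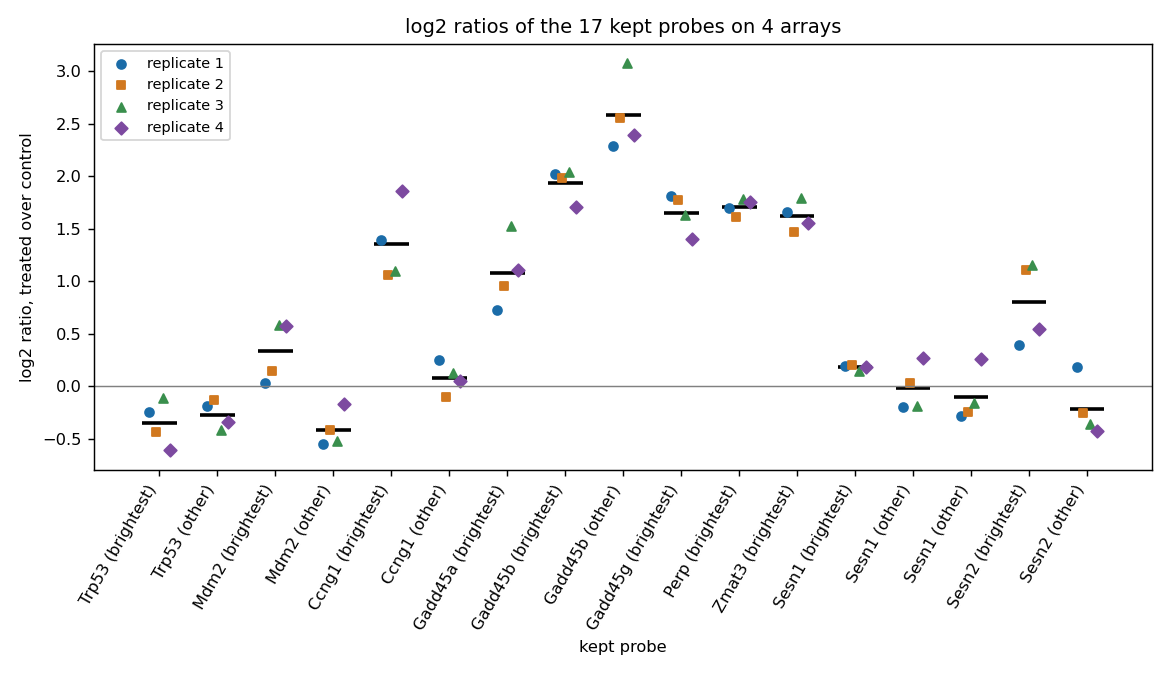
Log2 ratio of treated over control (y axis) of the 17 kept probes of the 10 genes (x axis; the brightest probe stands for the gene), with 1 point per array and a bar at the mean of the 4 arrays. Points of Gadd45a, Gadd45b, Gadd45g, Perp and Zmat3 lie at 0.73 or above, while the probes of Mdm2, Ccng1 and Sesn2 lie apart from each other.

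Of the 18 probes, 17 were kept: 10 were called higher, 3 lower and 4 in neither direction, against 66.4% of 27729 kept probes called, 37.3% higher and 29.1% lower. Treated levels lay above all controls on 10 of the 17 probes and below them on 2, against 33.7% and 25.3% of kept probes. A further kept probe whose clone the array describes as Gadd45a carries the name E230016M11Rik, lies outside the rule and had a log2 ratio of -0.15; it was singled out after its value was seen.

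In 4 of 6 members with separate kept probes, the ratio was higher toward the downstream end of the transcript. For each gene with kept probes at separate places, the ratio of the probe farthest downstream in the transcript direction was set against that of the probe farthest upstream, a comparison added after the probes were seen to differ. For Ccng1 the downstream probe, 1986 bases away, was higher by 1.27 (SE 0.142, adjusted p = 0.000411 over 6248 genes), and by at least 0.97 on every array. Sesn2 (884 bases) differed by 1.01 (SE 0.202, adjusted p = 0.00534), from 0.21 in replicate 1 to 1.52 in replicate 3. Mdm2 (3447 bases) differed by 0.75 (SE 0.112, adjusted p = 0.00149), and Gadd45b (523 bases) by 0.64 (SE 0.128, adjusted p = 0.00539).

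In the same comparison Sesn1 differed by 0.29 (SE 0.114, adjusted p = 0.0695) and Trp53 by -0.08 (SE 0.120, adjusted p = 0.596). The downstream probe was called higher in 4 of 6 members, and in 33.4% of the 6248 genes, and it was called lower in 15.4% of them. Over those genes the median difference was 0.12. A downstream excess was thus common over the genes of these arrays.

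Probe composition moved with position. The downstream probe had a lower GC content by 10 percentage points in Ccng1, Sesn2 and Trp53, by 8.3 in Mdm2 and by 13.3 in Gadd45b, with no difference in Sesn1, and the median over all 6248 genes was -1.67 points. After the trend on GC content was removed from each array, the 4 calls remained and the Gadd45b difference was 0.40 (adjusted p = 0.0125). Brightness also went with position. The downstream probe was the brightest in Ccng1, Sesn2, Mdm2, Sesn1 and Trp53, so the gene values of these members are those of the downstream probe. In Gadd45b the upstream probe was the brightest.

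**Figure D3:**
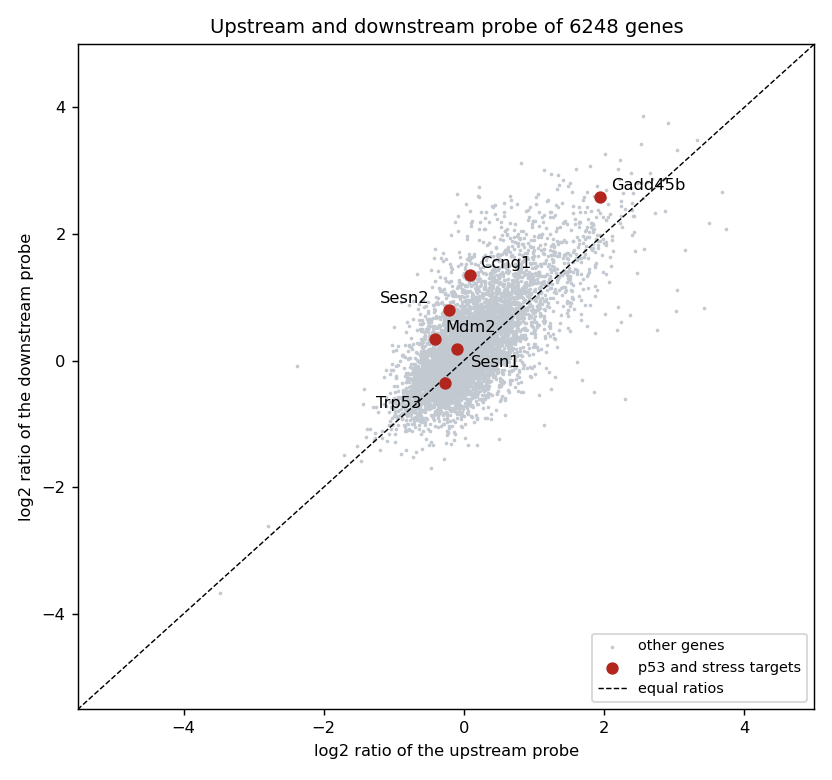
Log2 ratio of treated over control at the downstream probe (y axis) against the upstream probe (x axis) for 6248 genes, as means of 4 arrays, with the 6 members that have separate probes in red and a dashed line at equal ratios. Ccng1, Sesn2, Mdm2 and Gadd45b lie above the line, with differences of 0.64 to 1.27, and Trp53 lies next to it.

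Some of these probes hold the hexamer AATAAA, the signal for cleavage and polyadenylation, so a transcript end is possible within or near them. It starts at base 4 of the probe in Ccng1, 42 in Gadd45b, 12 in Zmat3 and 48 in Sesn1. They are shown with the hexamer in capitals, as 30 bases of each 60-base probe.
Ccng1 A_52_P612803: agaAATAAAattgctgagtttatctgcaaa
Gadd45b A_51_P500984: cagagacattccAATAAActcgttaagcct
Zmat3 A_51_P415220: tccttcagcctAATAAAtacagaagtctga
Sesn1 A_51_P233954: tatacagctccttaaagAATAAAgctggaa

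The hexamer was in these 4 of the 17 kept member probes and in 4.56% of all kept probes (1264 of 27729). It was in the downstream probe of Ccng1, Gadd45b and Sesn1 and in no upstream one. The median log2 ratio of kept probes with the hexamer was 0.17, and of those without it 0.03. A match of these letters does not show that the site is used.

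Of 22 regulators of p53, 5 were called higher and 8 lower, against 37.5% and 30.9% of all genes, and their median log2 ratio was 0.03. Hipk2, a kinase that phosphorylates p53, rose by 1.35 (SE 0.089, adjusted p = 1.10e-06), but its second probe gave 0.01 (adjusted p = 0.938). Cdkn2a, whose product Arf blocks Mdm2, rose by 1.11 (adjusted p = 1.12e-05); the locus also encodes the kinase inhibitor p16. Ppp1r13b, a p53 cofactor for apoptotic genes, fell by 1.02 (adjusted p = 6.42e-06). Rpl11, a ribosomal protein that can bind Mdm2, fell by 0.74 on the brightest probe (adjusted p = 1.64e-05), and its second probe gave 0.18 (adjusted p = 0.0483).

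Other genes listed as p53 targets were more often called higher than lower, as were all genes to a smaller degree. Among 20 genes listed as targets in cell-cycle arrest and DNA repair, 12 were called higher and 3 lower, with a median of 0.52. Of all genes, 37.5% were called higher and 30.9% lower. Sesn3, the third sestrin, rose by 1.68 (SE 0.071, 3.21-fold, adjusted p = 6.67e-08), although its second probe gave 0.07 (adjusted p = 0.519). Rprm, a G2 arrest protein, rose by 1.67 and Psrc1, a spindle protein, by 1.51, both on 2 probes. Ccng2, the second cyclin G, rose by 1.07. A place on the list does not show that p53 drives a gene, in these cells or in others, and this holds for Sesn3 and Ccng2 too. Control by p53 was not tested. The DNA damage recognition genes Xpc and Ddb2 went the other way, at -0.75 and -0.66 (adjusted p = 2.30e-05 and 0.000543), with -0.47 on the second Xpc probe (adjusted p = 0.00119).

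Of 20 genes listed as targets in cell death and signalling, 19 were tested, and Lif was not among them. Of these 19, 11 were called higher and 3 lower, against 37.5% and 30.9% of all genes, with a median of 0.28. Fas, a death receptor, rose by 1.34 (SE 0.093, adjusted p = 1.62e-06) and Eda2r, a TNF receptor family member, by 1.09 (adjusted p = 1.16e-06), and the second probe of each was also higher. Ddit4, an mTORC1 inhibitor, rose by 1.09 (adjusted p = 4.92e-05). Pml, the organiser of nuclear bodies, rose by 0.79 (adjusted p = 2.30e-05), with 0.20 on its second probe (adjusted p = 0.061). The apoptosis gene Bid and the nuclease gene Aen were lower, at -0.60 and -0.23 (adjusted p = 0.000148 and 0.0114).

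**Figure D4:**
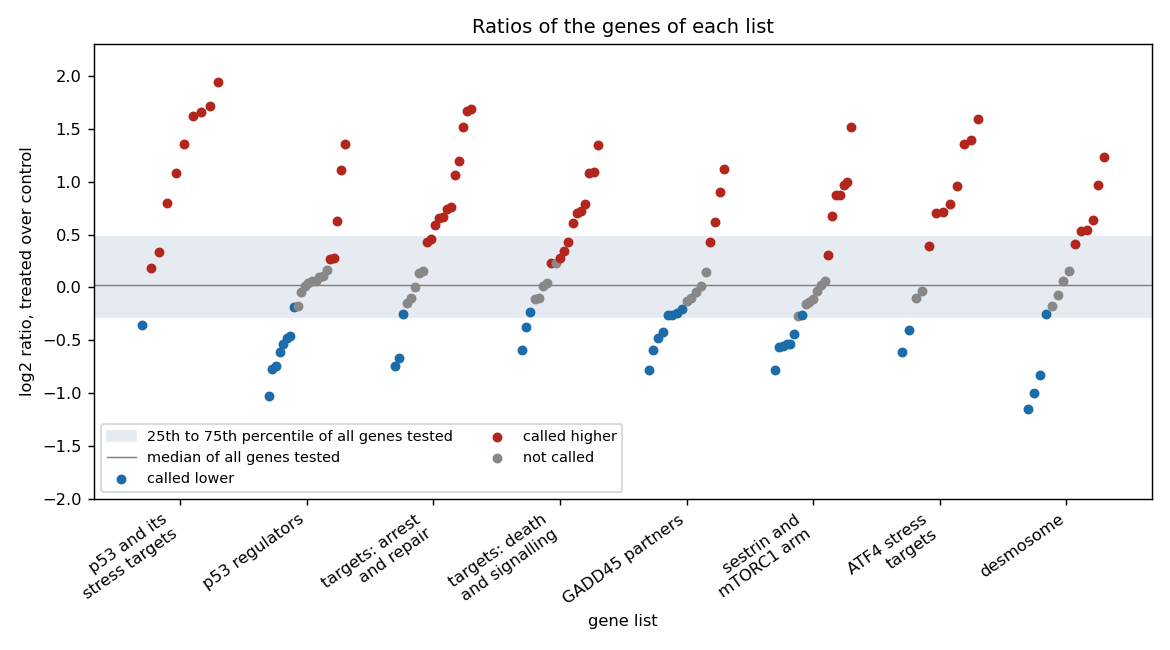
Log2 ratio of treated over control (y axis) of each tested gene in 8 lists (x axis), sorted within a list and coloured by call, with the median and the 25th to 75th percentile of all 18454 genes behind them. The 10 members have a median of 1.22 and the p53 regulators one of 0.03, while genes called lower appear in every list.

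Partners of the Gadd45 proteins in stress kinase signalling, the cell cycle and DNA demethylation were called higher in 4 of 17 and lower in 8. Of all genes, 37.5% were called higher and 30.9% lower. The median of the partners was -0.13. The demethylation enzyme genes Tet3 and Tet2 rose by 1.12 and 0.90 (adjusted p = 3.34e-06 and 2.95e-05), and the second probe was 0.00 for Tet3 (adjusted p = 0.983) and 0.80 for Tet2. The brightest Tet2 probe was dim, with mean log2 levels of 7.66 in treated and 6.765 in control samples. The Zmat3 probe not well above background read 6.44 and 6.70. Mapk9, which encodes JNK2, rose by 0.61, with 0.30 on its second probe (adjusted p = 0.0289). Apex1, the base excision repair endonuclease, fell by 0.78 (adjusted p = 4.31e-05).

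Of 21 sestrin and mTORC1 genes, 7 were called higher and 7 lower, with a median of -0.11; these counts are near the 37.5% higher and 30.9% lower among all genes. The AMPK catalytic subunits Prkaa1 and Prkaa2 rose by 1.52 and 0.99 (adjusted p = 1.02e-07 and 5.20e-06), and the second Prkaa1 probe gave 0.41 (adjusted p = 0.000716). Keap1, whose protein is degraded with the help of sestrins, rose by 0.97 and the Rag GTPase gene Rragc by 0.87. The arginine sensor Castor1 and the mTORC1 inhibitor Tsc1 were lower, at -0.78 and -0.53, and the second Tsc1 probe gave 0.12 (adjusted p = 0.176).

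Among 12 stress targets of ATF4, which also drives Sesn2, 8 were called higher, 2 lower and 2 in neither direction, with a median of 0.71. Of all genes, 37.5% were called higher and 30.9% lower. Atf5 rose by 1.60 (SE 0.076, 3.02-fold, adjusted p = 1.48e-07), the ER stress gene Herpud1 by 1.39, Vldlr by 1.35 and the death-related factor Ddit3 by 0.95. The cystine transporter Slc7a11 and the phosphatase subunit Ppp1r15a were lower, at -0.61 and -0.40. Slc7a11 was dim, with mean log2 levels of 6.93 in treated and 7.54 in control samples.

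Of 17 desmosome and keratin genes, the structural setting of Perp, 14 were tested, with 6 called higher, 4 lower and a median of 0.11, again near the 37.5% and 30.9% of all genes. Dsg2 rose by 1.23, with 0.08 on its second probe (adjusted p = 0.344), and Dsp by 0.97, with 0.40 on its second probe (adjusted p = 0.00214). Pkp3 and Krt19 fell by 1.15 and 1.00 (adjusted p = 4.12e-06 and 1.78e-06).

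Between 26613 and 28495 probes were well above background in a treated sample and between 25532 and 27891 in a control sample, with no saturated spot. The log2 ratios of the arrays correlated at r = 0.907 to 0.948 over genes, which share arrays and are not independent replicates.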

How the data were processed

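RNA was measured on 4 two-colour arrays, with 1 treated and 1 control sample each. The authors deposited spot intensity values and quality marks, which the scanner software (Agilent Feature Extraction 10.5.1.1 in the submitters' processing notes) had read. Per the file headers, LogRatio values are on a log10 scale, with red divided by green. The deposited series matrix holds log2 values; set against the scanner values it was treated over control processed signal with no centring (column medians -0.26, 0.011, 0.11 and -0.058).

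Background was corrected by normexp (offset 50) on mean signal and median local background, followed by loess within each array with control spots at weight 0. Spots marked as outliers (141 to 171 per array) were left out and spots of a probe averaged. A probe was kept if 1 channel was well above background on 3 or more of the 4 arrays (27729 probes), and the brightest stood for its gene. Names were updated through RefSeq (25097 probes by accession, 7973 by symbol or synonym, 8104 unchanged). The limma package (3.58.1, in R 4.3.3) tested log2 ratios against 0 by lmFit and eBayes, two-sided, with Benjamini-Hochberg adjustment, after the procedure was tested on simulated data. Since loess centres each array on its trend, a shift common to all genes is lost. Levels are log2 signals after loess and Aquantile scaling. Precision is limited by the number of arrays (median SD between arrays 0.15, on the log2 scale). Probe coordinates are those of the files (mm9); whether a probe lies in an exon or UTR was not determined here.

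The members and lists were chosen with earlier results of these data known. Besides all members, the rule for naming genes took up to 4 called genes of each list by lowest adjusted p, and up to 2 called in the direction opposite to the majority. The alternatives covered normalization, background correction, the filter, the probe that stands for a gene, GC content and each replicate left out.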

Additional observations from a re-analysis of the deposited data

Results flagged for a closer look

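In 3 of 51 sets of 4 values from the kept probes, 1 sample stood apart from the others by Dixon's ratio of its gap to the whole range; chance alone marks about 1 set in 20. The treated level of Gadd45g in replicate 4 was 15.76 where the others were 15.86 to 15.88 (ratio 0.852). The control level of Zmat3 in replicate 3 was 11.90 where the others were 12.14 to 12.18 (ratio 0.864). The control level of Sesn1 (A_51_P233954) in replicate 1 was 13.04 where the others were 13.13 to 13.14 (ratio 0.956). Gadd45g and Zmat3 were called higher without the replicate concerned, and Sesn1 was not.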

How the results depend on the processing

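Calls of Gadd45a (0.90 to 1.20), Gadd45b (1.77 to 2.58), Gadd45g (1.47 to 1.74), Perp (1.56 to 1.75) and Zmat3 (1.46 to 1.67) held under every alternative run for them; the cause of each change below was not tested. With the second brightest probe, which 6607 genes have, 2480 genes were called higher and 1780 lower. Of the 6 members with several kept probes, 1 was then called higher and 2 lower. Mdm2 was then at -0.42, Sesn1 at -0.017 and Sesn2 at -0.21, all turned in sign, and Ccng1 at 0.08. The lists then had 1 higher (p53 regulators), 3 (arrest and repair), 3 (death and signalling), 2 higher and 1 lower (Gadd45 partners), 4 and 4 (sestrin and mTORC1), 1 and 0 (ATF4) and 1 and 2 (desmosome). Many genes of these lists have no second kept probe and were not tested there. A smaller count than in the main run is therefore in part due to fewer genes. With the mean of the kept probes Mdm2 was at -0.040. Median centring called 3575 genes lower, 0 of them members, and 7 members higher instead of 9 (Mdm2 and Sesn1 lost), with 3 p53 regulators higher, 5 Gadd45 partners lower and 1 ATF4 target lower, and the Sesn1 probe A_52_P53596 turned to 0.070. Scanner LogRatio and series matrix values, which are not centred, moved the median of all genes to -0.12 and the share higher among called genes from 54.8% to 41.6% and called lower 5 arrest and repair genes, 5 death and signalling genes and 11 sestrin and mTORC1 genes. Under both, Ccng1 probe A_51_P161612 was at -0.088 and the brighter Mdm2 probe no longer passed (0.17). With probes above background in both channels on all arrays, 1 ATF4 target was lower. With the GC trend removed A_52_P53596 was at 0.011, and Mdm2 no longer passed (0.20). Leaving out 1 replicate at a time, 5 to 8 Gadd45 partners were lower (5 without replicate 2 or 3) and A_52_P53596 ran from -0.11 to 0.041. No separate paired analysis was run, because the ratio tested for each array already pairs its treated and control samples.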
